A study of Mus musculus with 82 samples.

Results

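The genes described here encode the proteins of the cytosolic ribosome, as measured in naive helper T cells (CD4) from a panel of inbred mice. They were chosen by name: a probe set annotated with a single symbol that is Rpl or Rps followed by a digit, or Rplp0, Rplp1, Rplp2 or Rpsa, with Rps6k kinases and pseudogene names left out. The rule found 63 genes of the 19752 that had a probe set with 1 symbol. Of these, 54 were standard ribosomal protein genes, 8 were paralogs or retrogenes of them (Rpl3l, Rpl7l1, Rpl10l, Rpl32l, Rpl39l, Rps4l, Rps27l and Rps23rg1), and Rps19bp1 matched the pattern although it encodes a binding partner of Rps19 and not a ribosomal protein. By place in the ribosome, 35 belonged to the large subunit, 24 to the small subunit and 3 to the stalk. A further 20 genes of the same pattern (Rpl3, Rpl11, Rpl13a, Rpl15, Rpl17, Rpl22l1, Rpl31, Rpl32, Rpl35, Rpl35a, Rpl36al, Rpl37, Rpl37rt, Rpl39, Rps16, Rps23, Rps24, Rps26, Rps27 and Rps27rt) appeared only in probe sets that carry several symbols and were not analysed here.

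The cells were spleen T cells of male mice, labelled as 6 weeks old, sorted to carry CD3, CD4 and CD62L and to lack CD25 and the markers of other leukocytes and of red cells. The series text gives a different age and in 1 sentence speaks of bone marrow granulocytes, and the labels were followed here. Each Affymetrix ST1.0 array held RNA of a pool of mice, and the 82 arrays fell into 40 strain groups, of which 38 had 2 arrays, C57BL/6J had 5 and SWR/J had 1. A first set of 4 strains, JF1/Ms, MSM/Ms, CAST/EiJ and PWD/PHJ, comes from subspecies other than domesticus. The other 36 groups were 129S1/SvImJ, A/J, AKR/J, BALB/cByJ, BPL/1J, BTBR T+ tf/J, C3H/HeJ, C57BL/10J, C57BL/6J, C57BLKS/J, C57L/J, CBA/CaJ, CBA/J, CE/J, DDY/JclSidSeyFrkJ, FVB/NJ, KK.Cg-Ay/J, LGJ, LP/J, MA/MyJ, MRL/MpJ, NOD/ShiLtJ, NON/ShiLtJ, NOR/LtJ, NZB/BINJ, NZW/LacJ, P/J, PL/J, RIIIS/J, SEA/GnJ, SJL/J, SM/J, SWR/J, WSB/EiJ, C57BR-titled and DBA2-titled, of which WSB/EiJ is a wild-derived domesticus strain and KK.Cg-Ay/J carries the Ay allele. The arrays titled C57BR and DBA2 carry background labels of other strains (CBA/CaJ and DBA/1LacJ) and were kept as groups of their own. The 9 measured T cell markers averaged 11.77 to 12.19 on the log2 scale across arrays, and the 14 measured B cell markers 5.44 to 8.76, with a median of 5.66. The 10 neutrophil markers averaged 5.45 to 7.42, with a median of 5.69. The highest B cell marker means, 8.76 and 7.27, came from replicate 2 of PL/J and replicate 2 of A/J. Array medians ran from 102 to 142 intensity units. The highest was replicate 5 of C57BL/6J, without which 54 members still passed the F-test described below, 8 strain calls were made and 11 members differed by subspecies origin.

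Ribosomal proteins are built into the small subunit, which reads the messenger RNA, and the large subunit, which joins amino acids. The stalk of the large subunit, made of Rplp0, Rplp1 and Rplp2, recruits translation factors. Because a ribosome holds nearly all of these proteins in equal number, their genes are usually expressed together. Their messages typically begin with a C followed by a run of C and T bases, the terminal oligopyrimidine (TOP) tract, through which mTOR signalling and Larp1 control their translation. Naive T cells are resting cells, and ribosome production rises when they are activated.

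The start regions of the genes are shown first, since the TOP tract is the feature the family is best known to share. RefSeq start regions (assembly GRCm38.p6) of 250 bases before to 50 bases after an annotated start were held for 51 of the 63 genes. A C at the annotated start followed by 4 bases that are each C or T was sought on the gene's own strand. It was found in 10 of these 51 genes (19.6%), against 3.01% of 27025 genes. Only a run beginning at the annotated base was counted, and runs beginning some bases away, as in Rps25 and Rps9, were not. The count therefore does not tell how many of the genes lack a TOP tract. The following 8 windows, of 30 bases before to 20 bases from the start on, show it in standard ribosomal protein genes, with the run of C and T from the start in capitals.
Rps6, chr4:86857348-86857397, minus strand: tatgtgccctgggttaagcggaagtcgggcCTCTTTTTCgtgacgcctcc
Rps10, chr17:27635225-27635274, minus strand: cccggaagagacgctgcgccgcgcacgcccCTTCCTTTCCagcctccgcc
Rps15a, chr7:118116128-118116177, minus strand: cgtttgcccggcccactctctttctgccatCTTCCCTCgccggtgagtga
Rps18, chr17:33955646-33955695, minus strand: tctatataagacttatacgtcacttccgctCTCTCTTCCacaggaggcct
Rpl14, chr9:120571487-120571536, plus strand: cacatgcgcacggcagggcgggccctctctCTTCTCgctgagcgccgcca
Rpl28, chr7:4792935-4792984, plus strand: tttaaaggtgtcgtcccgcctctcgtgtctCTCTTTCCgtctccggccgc
Rpl38, chr11:114668550-114668599, plus strand: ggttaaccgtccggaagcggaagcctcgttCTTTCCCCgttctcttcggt
Rplp2, chr7:141447621-141447670, plus strand: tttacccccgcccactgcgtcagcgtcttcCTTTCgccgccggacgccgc
These letters are those of the reference genome, not of the other strains. The other carriers were Rps21 and the retrogene Rpl32l. Rps6 and Rps10, which varied little between strains, and Rps15a and Rpl14, which varied more, all carried the tract. The chosen probe sets of Rps6 and Rps10 are numbered among genes of other chromosomes than the genes shown.

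Other short motifs were searched on both strands anywhere in the window. The letters CCGGAAG, which ETS-family factors bind, were present in 19 of the 51 genes (37.3%), against 9.93% of all genes. The letters TCTCGCG were present in 13 (25.5%, against 2.92%), namely Rpl7a, Rpl10a, Rpl12, Rpl26, Rpl27a, Rpl28, Rps2, Rps3a1, Rps6, Rps13, Rps15a, Rps19 and Rps28. TATAAA was present in 6 (11.8%, against 15.7%) and AAGATGG in 5 (9.8%, against 7.28%). Overlaps between these motifs were not removed, and TCTCGCG was chosen after some windows had been seen. Members carrying TCTCGCG had SDs of strain means (log2) from 0.04 in Rps6 to 0.56 in Rps3a1. Whether the motif goes with this spread was not tested. The windows are those of the RefSeq genes. The chosen probe sets of Rps3a1, Rps6, Rpl7a, Rpl10a, Rpl27a, Rpl28 and Rps28 are numbered among genes of other chromosomes. Whether these probe sets read copies that lack the windows was not tested. The motif also lies close to the start in the less variable Rpl10a (0.12), Rps2 (0.14), Rpl27a (0.14) and Rps13 (0.17), whose windows are left out. The following 4 windows have the motif close to the start, with the motif on either strand in capitals. They were picked because Rps3a1, Rps19 and Rpl26 were among the most variable members.
Rps3a1, chr3:86142649-86142698, minus strand: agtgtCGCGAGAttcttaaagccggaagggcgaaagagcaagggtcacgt
Rps19, chr7:24884562-24884611, plus strand: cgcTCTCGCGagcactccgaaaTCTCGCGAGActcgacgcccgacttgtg
Rps28, chr17:33824543-33824592, minus strand: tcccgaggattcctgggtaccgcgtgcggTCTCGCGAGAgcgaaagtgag
Rpl26, chr11:68901536-68901585, plus strand: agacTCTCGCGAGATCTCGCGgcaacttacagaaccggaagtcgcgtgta

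The genes had a common level that differed between strains by less than 1.5-fold. The common level was taken as the mean log2 intensity of the 63 genes on each array. Averaged by strain, it ran from 10.85 in BALB/cByJ to 11.33 in the DBA2-titled group, with a median of 11.09, a range of 0.48 or 1.40-fold. The SD of the strain means was 0.11 and the SD between replicate arrays 0.07, and 66% of the variance lay between strains (an intraclass correlation of 0.66). No test was made, because the score runs over genes chosen by name, and fewer cells of a type and less RNA per cell cannot be told apart in these bulk samples.

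**Figure D1:**
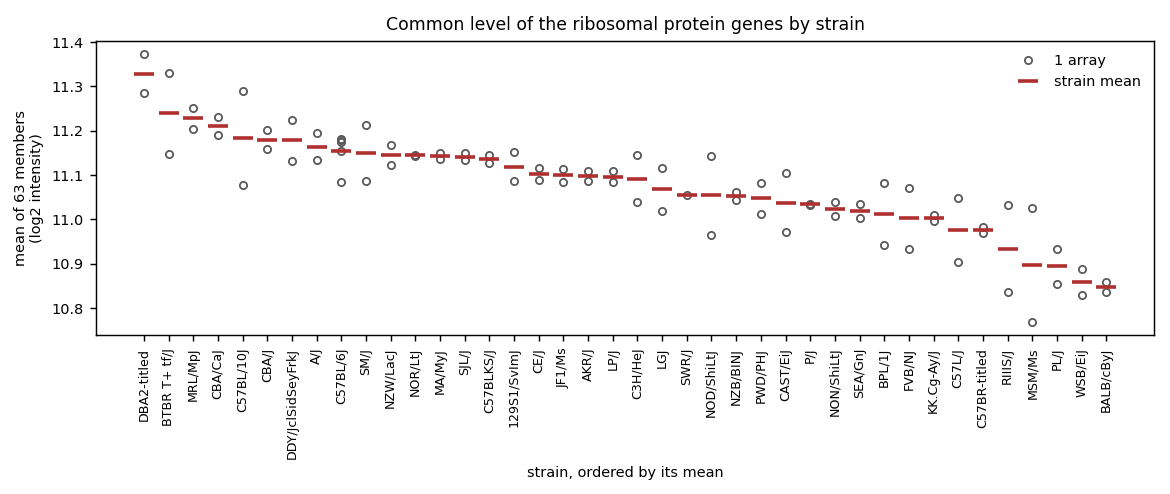
Mean log2 intensity of the 63 ribosomal protein genes by strain, ordered from high to low, with each array as an open circle and each strain mean as a red bar. The strain means run from 11.33 (DBA2-titled) to 10.85 (BALB/cByJ) with the widest step between the DBA2-titled group and BTBR T+ tf/J (11.24), and the 2 arrays of MSM/Ms lie at 10.77 and 11.03.

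DBA2-titled arrays lay at 11.37 and 11.28, which put this group 0.26 above the mean of the other strains, with 60 of 63 genes above their own median over strains. BTBR T+ tf/J (11.15 and 11.33) and MRL/MpJ (11.20 and 11.25) came next. At the other end BALB/cByJ had 10.86 and 10.84, with 58 of 63 genes below their own median, WSB/EiJ had 10.89 and 10.83, and PL/J had 10.93 and 10.86. These strains were picked by the mean of the same 63 genes, so the counts of genes above or below their median add no separate support. The PL/J array with the high B cell marker mean was the second of the PL/J arrays, and the first, with a B cell marker mean of 5.76, was also low. Of the 39 neighbouring pairs in the order, 38 were closer than the SD between replicates, and in 11 groups of 2 arrays the arrays differed by more than 0.1. The exception was the step from the DBA2-titled group (11.33) to BTBR T+ tf/J (11.24), while the low end ran on without such a step. With quantile normalization the DBA2-titled group was still highest, but by 0.16 above the others and not 0.26, and BALB/cByJ was still lowest (-0.17). With each array centred on its median, the DBA2-titled group was highest (0.28) and PL/J lowest (-0.23). The place of PL/J depended on the scaling, since it stood at -0.19 in the deposited values and at -0.08, 35 from the top, with quantile normalization.

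Single genes followed the common level to differing degrees. Over all 1953 pairs of members the median correlation of strain means was 0.33, and 86.5% of pairs lay above 0. These are descriptions over 40 strains that share arrays. The genes closest to the mean of the other members were Rpl27a (Pearson's r = 0.87), Rpl36a (0.87) and Rps13 (0.86). The least like it were Rps23rg1, a retrogene of Rps23 (-0.08), Rpl37a (-0.01) and Rps6 (0.14). Rps23rg1 and Rps6 did not pass the F-test described below (adjusted p = 0.632 and 0.946). Their strain means spread no wider than replicate arrays, so their low correlations cannot tell a departure from the common level from noise. Rpl10 and Rps18 were the most alike pair (0.89), and Rpl37a and Rps19 the most opposed (-0.56). Rpl10 did not pass the F-test either (adjusted p = 0.153). Fau, which encodes a small-subunit protein fused to a ubiquitin-like one and falls outside the naming pattern, correlated with the common level at 0.86.

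Most members differed between strains, as did most genes with strong signal. In the moderated F-test of limma over all groups, 54 of 63 members (85.7%) had an adjusted p below 0.05, against 47.6% of all probe sets and 84.9% of the 1247 probe sets in the top 5% of signal, where 43 of the members lie. Signals of different probe sets do not rank genes by transcript amount and are used here only as a background. By place, 31 of 35 large-subunit genes, 19 of 24 small-subunit genes and 3 of 3 stalk genes passed, as did 4 of 8 paralogs and retrogenes. The median SD of strain means was 0.17 in members, 0.14 in all probe sets and 0.15 in the top 5%. The median intraclass correlation was 0.58 in members, 0.26 in all probe sets and 0.56 in the top 5%. Centring each array on its mean over the members lowered the median SD of members to 0.13, and 47 members still passed.

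**Figure D2:**
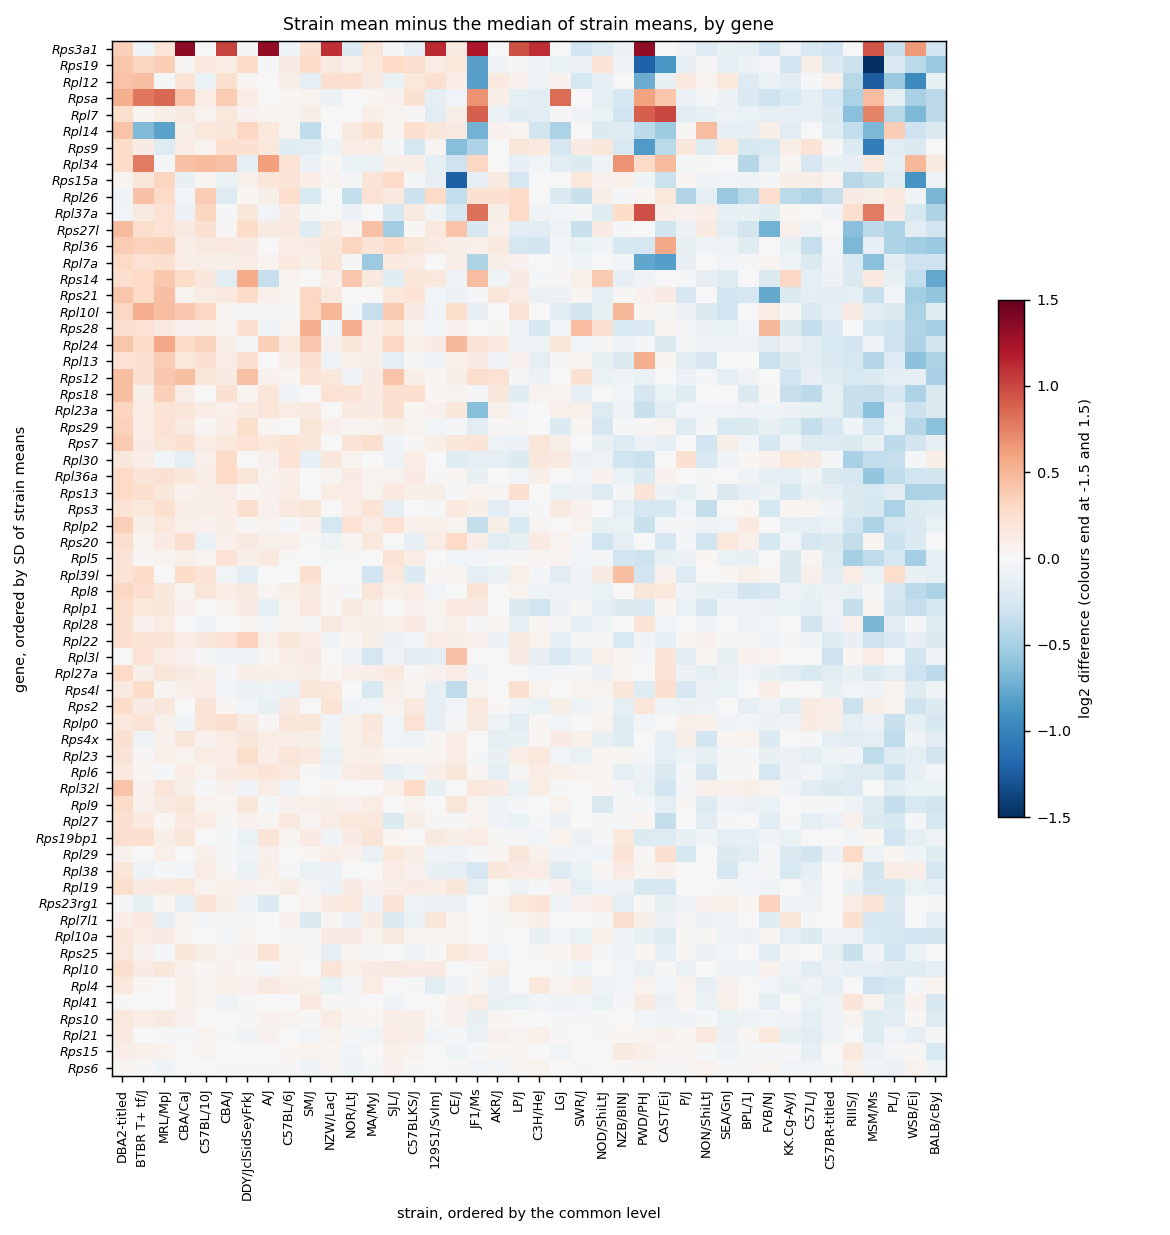
Strain mean minus the median of strain means (log2) for the 63 genes, ordered by their SD from top to bottom, in the 40 strains ordered by the common level from left to right. Red is higher and blue lower, and single genes at the top, such as Rps3a1 and Rps19, depart by more than most others in some strains. Others often shifted the same way: 48 of 63 genes were below their own median in MSM/Ms, where Rps19 was lowest. In CBA/CaJ, where Rps3a1 was highest, 51 were above it.

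The steadiest gene was Rps6, the small-subunit protein that S6 kinases phosphorylate downstream of mTOR. Its arrays ran from 11628 through a median of 12578 to 13722 intensity units, its strain means had an SD of 0.04, and it did not pass the F-test (adjusted p = 0.946). Rps15 (SD 0.07, adjusted p = 0.216) and Rpl21 (0.08, 0.12) did not pass either. Rps10 (SD 0.08, adjusted p = 0.0206) and Rpl41, which encodes the shortest ribosomal protein (0.09, 0.00988), passed with small spreads. The other members that did not pass were Rpl10, Rps25, Rpl3l, Rpl32l, Rps4l and Rps23rg1. All 4 of Rps6, Rps15, Rpl21 and Rps10 belong to the 9 members with a mean signal of at least 13 on the log2 scale, where the median SD was 0.10 in members and 0.09 in the 126 probe sets of that band. In members below 10 the median SD was 0.22, against 0.14 in the 22627 probe sets of that band. The part of the upper end of the signal range in the small spreads was not tested.

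**Figure D3:**
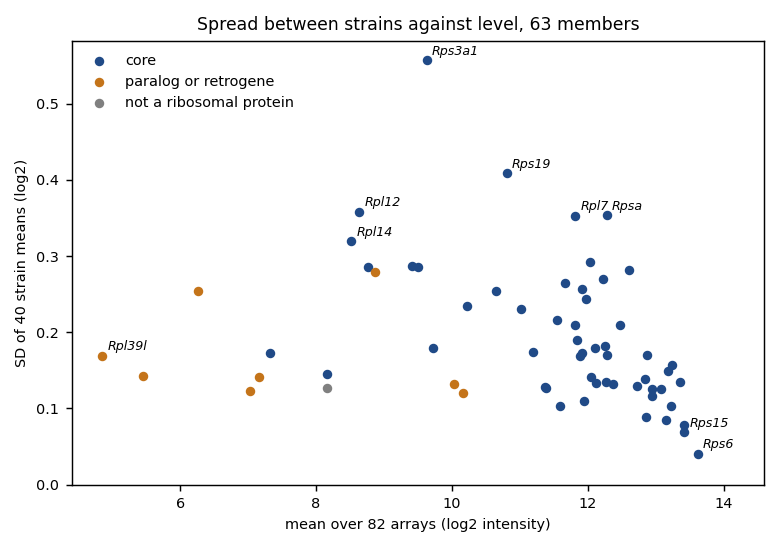
SD of the 40 strain means (log2) against the mean over 82 arrays (log2 intensity) for each of the 63 genes, coloured by kind. Rps3a1 (0.56) and Rps19 (0.41) have the widest spreads, and Rps6 (0.04) has the smallest at the highest signal.

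A few members lay far from the mean of the other strains in some strains. The common level was not subtracted in this comparison. A strain was called for a gene when it differed from the mean of the other 39 strains at least 2-fold with an adjusted p below 0.05 over all probe sets and strains. Such calls were made in 5 of 63 members (7.94%), against 6.58% of all probe sets, a share near the background. The 8 calls were 4 higher and 4 lower, in Rps3a1, Rps15a, Rps19, Rpl7 and Rpl12.

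Rps3a1, a small-subunit protein near the exit path of the messenger RNA, had the widest spread of all members (SD of strain means 0.56, intraclass correlation 0.93). Its arrays read 1492 and 1912 in CBA/CaJ, 1886 and 1497 in PWD/PHJ, and 1626 and 1720 in A/J, against a median strain mean of 666. The differences from the other strains were 1.12 ± 0.11 in CBA/CaJ (SE, n = 2 arrays, limma adjusted p = 1.82e-11), 1.11 in PWD/PHJ and 1.10 in A/J. The strain means fell into an upper set of 10 strains (CBA/CaJ, PWD/PHJ, A/J, JF1/Ms, 129S1/SvImJ, C3H/HeJ, NZW/LacJ, CBA/J, LP/J and MSM/Ms), at 1285 to 1689, and a lower set of 30, at 524 (PL/J) to 1033 (WSB/EiJ). The gap of 0.31 between MSM/Ms and WSB/EiJ was the largest in the order, although the lower MSM/Ms array (1030) lay below the higher WSB/EiJ array (1056). CAST/EiJ, with 604 and 746, was in the lower set, so the split did not follow subspecies origin. The C57BR-titled arrays, whose background label is CBA/CaJ, were also in the lower set, with 558 and 532. JF1/Ms (0.98), 129S1/SvImJ (0.88) and C3H/HeJ (0.88) missed the 2-fold limit narrowly. CBA/CaJ fell below it without replicate 2 (0.94) or with each array centred on the members' mean (0.98), and PWD/PHJ without replicate 1 (0.94). The only single-symbol probe set of Rps3a1 is numbered among probe sets of genes on chromosome 13, while RefSeq places Rps3a1 on chromosome 3. Whether this probe set reads Rps3a1 itself or a near-identical copy was not tested.

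Rps19, a small-subunit protein whose human counterpart is the gene most often mutated in Diamond-Blackfan anaemia, was low in all 4 strains of other subspecies. Its arrays read 561 and 811 in MSM/Ms, 754 and 884 in PWD/PHJ, 898 and 1196 in CAST/EiJ and 1249 and 929 in JF1/Ms. The 36 other strain means ran from 1292 through a median of 1920 to 2530, so that no strain mean overlapped. The single-strain calls were MSM/Ms, with a difference of -1.44 ± 0.12 from the other strains (SE, n = 2 arrays, adjusted p = 1.13e-13), and PWD/PHJ (-1.15). Within the 4 strains, MSM/Ms and JF1/Ms arrays did not overlap.

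Rps15a, another small-subunit protein, was low in CE/J. The CE/J arrays read 312 and 328 and the WSB/EiJ arrays 426 and 384, while the other 38 strain means ran from 562 to 935. CE/J differed from the other strains by -1.20 ± 0.10 (SE, n = 2 arrays, adjusted p = 4.68e-13) and WSB/EiJ by -0.86 (1.32e-08), short of 2-fold. Among the other members of the small subunit with wide spreads, Rps14 was lowest in BALB/cByJ (1841 and 2657, a difference of -0.82, adjusted p = 3.41e-07). Human RPS14 is known from the anaemia of a chromosome deletion syndrome. Rps21 was lowest in FVB/NJ, with 985 and 930 (-0.76, 4.12e-06).

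Rpl7, a large-subunit protein, was high in the same 4 strains in which Rps19 was low. Its arrays read 6925 and 7440 in CAST/EiJ, 6789 and 6474 in PWD/PHJ, 5558 and 6427 in MSM/Ms and 6667 and 6576 in JF1/Ms. The other 36 strain means ran from 2239 (WSB/EiJ) through a median of 3419 to 4282 (DBA2-titled), and no array of these strains was above 4656. CAST/EiJ was called, at 1.02 ± 0.10 above the other strains (SE, n = 2 arrays, adjusted p = 2.63e-11), and PWD/PHJ and JF1/Ms (0.90 each) fell just short. CAST/EiJ also fell below 2-fold without replicate 3 (0.97) or with each array centred on its median (0.91). All 4 single-symbol probe sets of Rpl7 gave a higher level in these strains, by 0.86 to 0.97, including the one numbered among genes of chromosome 1, where RefSeq places Rpl7.

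Rpl12, which sits at the base of the stalk, was low in several strains at once. MSM/Ms arrays read 164 and 188, a difference of -1.20 ± 0.12 from the other strains (SE, n = 2 arrays, adjusted p = 1.06e-10). The next lowest were WSB/EiJ (223 and 204.3, -0.91), JF1/Ms (267 and 208, -0.76) and PWD/PHJ (277 and 222, -0.69). CAST/EiJ, with 377 and 394, lay within the range of the rest. The 36 strains outside the 4 had a median of 429 and a highest mean of 567 in BTBR T+ tf/J. WSB/EiJ and MSM/Ms were also among the 4 lowest strains in the common level.

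**Figure D4:**
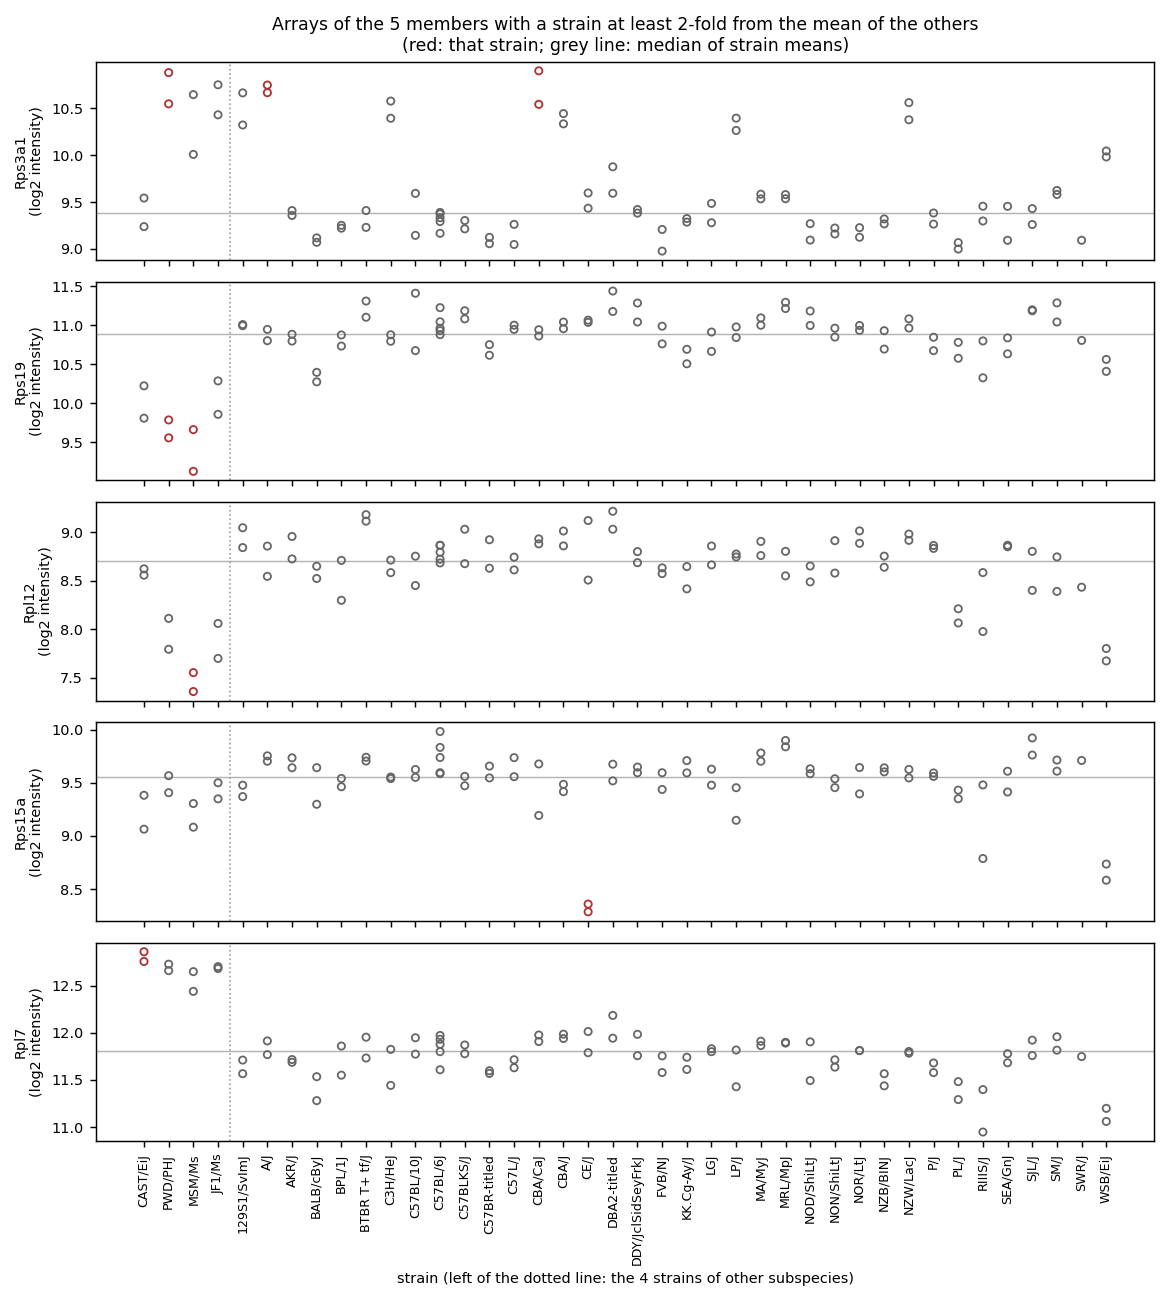
Log2 intensity of each array for the 5 genes with a strain at least 2-fold from the mean of the others, with called strains in red and the median of strain means as a grey line. Left of the dotted line stand the 4 strains of other subspecies, where Rps19 is low and Rpl7 high, whereas the high strains of Rps3a1 lie on both sides.

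Other large-subunit genes with wide spreads had no 2-fold call. Rpl34 was highest in BTBR T+ tf/J, with 1059 and 1125 against a median strain mean of 637 (a difference of 0.71, adjusted p = 7.25e-05). Rpl26, which binds the p53 message in human cells, was lowest in BALB/cByJ, with 292 and 261 (-0.66, 0.000139). Rpl36 was highest in CAST/EiJ, where both arrays (7080 and 7150) were above every strain mean of the others, the next being 6238 (0.59, 0.0035). Rpl28 was lowest in MSM/Ms, with 5148 and 6507 (-0.69, 1.18e-08). In all, 20 of 63 members (31.7%) had strain means spanning at least 2-fold, against 18.6% of all probe sets.

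Rpsa and Rpl14, which RefSeq places on chromosome 9, departed in opposite directions in some of the same strains. Rpsa, a small-subunit protein also known as the laminin receptor precursor, read 9015 and 8166 in MRL/MpJ, 8625 and 8281 in LGJ and 7428 and 8993 in BTBR T+ tf/J, against a median strain mean of 4724. Rpl14, a large-subunit protein, read 200 and 248 in MRL/MpJ, its lowest strain, against a median strain mean of 389. BTBR T+ tf/J (-0.59) and JF1/Ms (-0.64) were also low for Rpl14 relative to the other strains, and JF1/Ms was high for Rpsa (0.62). The correlation of the 2 genes over 40 strains was -0.37. The pair was chosen after the values were seen, and the correlation is a description. The chosen Rpsa probe set is numbered among genes of chromosome 10. Its other 4 probe sets, among them the one on chromosome 9, had CAST/EiJ as their lowest strain, and correlated with the chosen one at 0.35 to 0.71.

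By subspecies origin, 11 of 63 members differed between the 4 strains and the 36 in limma on strain means, where each strain counts once. Kinship among strains was not modelled. Lower in the 4 strains were 8 members (12.7%), against 3.77% of all probe sets, and higher were 3 (4.76%), against 4.96%. Over all members, 45 of 63 differences lay below 0, against 41.8% of all probe sets, with a median of -0.06 in members and 0.02 in all probe sets. The count below 0 was 39 with quantile normalization, 48 with each array centred on its median and 31 with each array centred on the members' mean. The last scaling sets the mean difference of the members to 0 in advance, so its count cannot tell of a shared shift. The common level itself averaged 11.02 in the 4 strains and 11.08 in the 36.

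**Figure D5:**
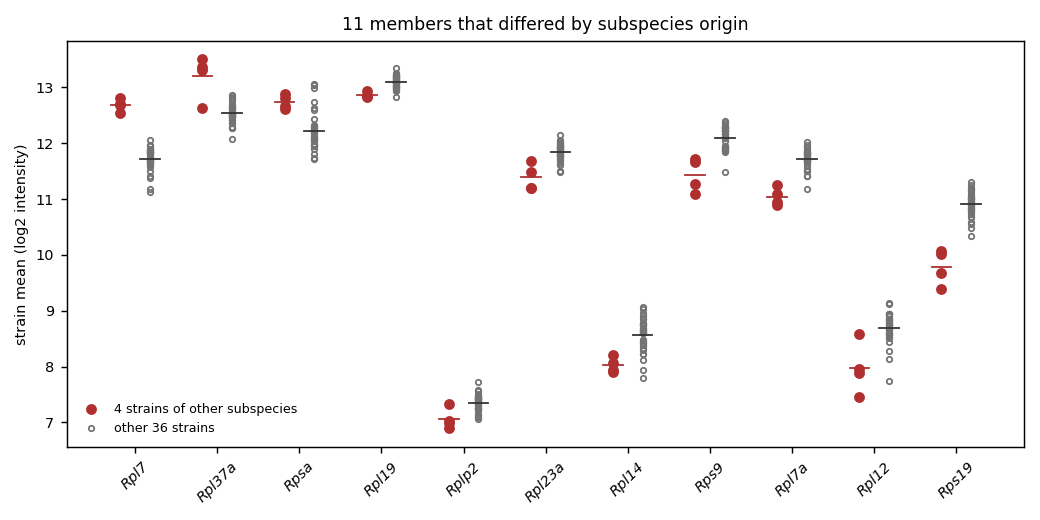
Strain means (log2 intensity) of the 11 genes that differed by subspecies origin, with the 4 strains of other subspecies as filled red circles and the other 36 as open circles, each with its mean as a line. The 2 sets of strain means are fully apart for Rpl7 and Rps19 and overlap to differing degrees in the other 9.

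In the large subunit, Rpl7a was lower in the 4 strains by -0.67 ± 0.09 (SE, n = 4 and 36 strains, adjusted p = 3.02e-07). Its arrays read 1673 and 2156 in CAST/EiJ, 1696 and 2296 in PWD/PHJ, 1977 and 2429 in MSM/Ms and 2606 and 2271 in JF1/Ms. The 36 strain means ran from 2308 to 4165, and 3 of the 4 strains lay below all of them. A second Rpl7a probe set gave -0.45 (7.52e-06) and the remaining one -0.14 (0.4). The chosen probe set is numbered among genes of chromosome 6 and the others among genes of chromosomes 3 and 18. RefSeq places Rpl7a on chromosome 2, and whether any of these probe sets reads a copy was not tested.

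Rpl12 differed by -0.73 ± 0.14 (adjusted p = 0.000426) and Rpl14 by -0.54 ± 0.14 (0.0076), with strain means that overlapped those of the 36. For Rpl14 the adjusted p was 0.0529 without JF1/Ms. Rpl23a, a protein near the exit of the peptide tunnel, averaged 2684 in the 4 strains and 3684 in the 36 (-0.46 ± 0.08, adjusted p = 0.000102). All 11 of its probe sets were lower in the 4 strains, from -0.63 to -0.26, and the smallest of these differences did not pass (0.057). In the chosen one, MSM/Ms (2352) and JF1/Ms (2343) lay below all of the 36 strain means, which ran from 2876 to 4544. CAST/EiJ (3267) and PWD/PHJ (2883) lay within that range. Rpl19 averaged 7440 in the 4 strains and 8771 in the 36 (-0.24 ± 0.06, 0.00357).

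Rpl37a, a zinc-binding protein of the large subunit, was higher by 0.67 ± 0.10 (adjusted p = 5.96e-06) through 3 of the 4 strains. Its arrays read 12035 and 11245 in PWD/PHJ, 9949 and 10519 in MSM/Ms and 10756 and 10340 in JF1/Ms, all above the 36 strain means of 4326 to 7431. CAST/EiJ, with 6501 and 6225, lay among the 36. Its only single-symbol probe set is numbered among genes of chromosome 7, while RefSeq places Rpl37a on chromosome 1, and whether it reads a copy was not tested.

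In the small subunit, Rps9 was lower by -0.67 ± 0.11 (adjusted p = 1.99e-05). Its arrays read 2250 and 2723 in PWD/PHJ, 2038 and 2315 in MSM/Ms, 3060 and 3692 in CAST/EiJ and 2931 and 3559 in JF1/Ms, against strain means of 2854 to 5369 in the 36. PWD/PHJ and MSM/Ms were below all 36, and a second Rps9 probe set gave -0.37 (0.00992). The second one is numbered close to the Rpl28 probe set of chromosome 7, and RefSeq places Rps9 near Rpl28. The chosen one is numbered farther on, beyond the chosen probe sets of Rps13 and Rps15a. Whether it reads a copy was not tested. Rps3a1 differed by 0.69 ± 0.26 and did not pass (0.0996).

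Rpsa averaged 6856 in the 4 strains and 4792 in the 36 (0.52 ± 0.16, adjusted p = 0.0353), but this rests on the chosen probe set. Its 4 other probe sets gave -0.16 to -0.28, none of which passed, and the chosen one gave 0.47 to 0.56 when any of the 4 strains was left out, with adjusted p from 0.0533 to 0.146. In the stalk, Rplp2 averaged 133 in the 4 strains and 164 in the 36 (-0.30 ± 0.08, 0.00953), with CAST/EiJ (154 and 166) within the range of the 36. Without MSM/Ms the adjusted p for Rplp2 was 0.114 and without JF1/Ms 0.058. Rplp0 (-0.0049) and Rplp1 (0.03), the other stalk genes, had differences near 0 that did not pass (0.986 and 0.898).

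The stalk genes varied between strains. Rplp0 was lowest in PL/J, with 8573 and 7846, and highest in CBA/J, with 11860 and 12475. Rplp1 had its highest strain mean in the DBA2-titled group (11643 and 12204) and its lowest in RIIIS/J. All 3 stalk genes followed the other members, with correlations of 0.62 (Rplp0), 0.73 (Rplp1) and 0.64 (Rplp2) over strains.

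Among paralogs and special forms, Rpl22, which is required for the development of αβ T cells in mice, was lowest in MSM/Ms (211 and 248) and highest in DDY/JclSidSeyFrkJ (F-test adjusted p = 0.00247). Rps27l, a p53 target and paralog of Rps27, was lowest in FVB/NJ (339 and 254, a difference of -0.68, adjusted p = 0.00105) and highest in the DBA2-titled group (773 and 573). Rpl7l1, a relative of Rpl7, varied little (SD 0.12, F-test adjusted p = 0.0155). Rps4x, the X-linked form of Rps4, ran from 3815 in PL/J to 5845 in the DBA2-titled group (adjusted p = 0.000205). Rpl3l, a muscle form of Rpl3 (21st percentile of all probe sets), Rpl39l, a testis form of Rpl39 (12th), and Rpl10l, a male germ cell form of Rpl10 (38th), were the members below the median of all probe sets. Rpl10l (adjusted p = 0.0212) and Rpl39l (0.0125) still passed the F-test. Rps4l (0.492) and Rps23rg1 (0.632) did not.

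Near-identical copies limit what a single probe set of this family can say. The 63 members had 207 single-symbol probe sets, from 1 in 25 members to 11 in Rpl23a. Probe sets are numbered in chromosomal order, and 99.7% of genes with 1 probe set lie among genes of their own chromosome, but only 63 of the 207 member probe sets and 32 of the 63 chosen ones did. The 144 probe sets not chosen correlated with the chosen one of their gene at a median of 0.97 over strains, the lowest at 0.29. In 31 of the 38 members with several probe sets all passed the F-test, in 4 they differed and in 3 none passed. With probe sets limited to the gene's own chromosome, which 58 members had, 52 passed the F-test and 5 strain calls were left. Lying among genes of the right chromosome does not place a probe set at the gene itself, as with the chosen one of Rps9. Rps19, Rpl12 and Rps15a were read by probe sets on their own chromosome, and the probe sequences were not compared with those of copies or of the strains.

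Lists of other genes of ribosome production were read from the same fit, in which 47.6% of all probe sets passed the F-test, 4.96% were higher in the 4 strains and 3.77% lower. Of mitochondrial ribosomal protein genes, 62 of 77 (80.5%) passed the F-test, with 3 (3.9%) higher and 5 (6.49%) lower in the 4 strains, which is near the shares over all probe sets. Mrpl11 averaged 452 in the 4 strains and 277 in the 36 (0.71, adjusted p = 0.00127). Of translation initiation factors 37 of 49 (75.5%) passed, of elongation factors and other TOP messages 10 of 14 (71.4%), of ribosome assembly factors 20 of 25 (80.0%), of RNA polymerase I genes 12 of 12, and of growth control genes such as Myc and Mtor 13 of 13. Eef1b2, an elongation factor subunit, averaged 4258 in the 4 strains and 3436 in the 36 (0.31, 0.0223). The mean of the elongation factor and TOP list correlated with the ribosomal common level over strains at 0.73, that of mitochondrial ribosomal proteins at 0.59 and that of growth control genes at 0.13, as descriptions over strains that share arrays.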

How the data were processed

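Per the submitters' processing notes, the arrays were processed with RMA and Affymetrix Power Tools, whose versions are not given in the sources used here. Values as deposited are linear intensity, which the authors had already normalized. They cover 24922 probe sets and 82 arrays and were taken to log2 without a filter. Of these, 21425 had 1 symbol, 1399 several and 2098 none. Each gene was read from its probe set with the highest mean. limma 3.58.1 in R 4.3.3 fitted 1 coefficient per strain group to all arrays (42 residual degrees of freedom, prior 8.09), with Benjamini-Hochberg adjustment across the whole table, and for single-strain contrasts across the table and all 40 strains together. The subspecies comparison used strain means. P-values of the F-test and the single-strain contrasts rest on the spread between pools of mice, and the number of arrays limits their precision. Those of the subspecies comparison rest on the spread between strain means, and the 4 strains on 1 side limit their precision. They also treat related strains as independent, which can make them too small. The code was tested on simulated data.

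Genes named with values were those with a 2-fold strain call, the 15 widest SDs past the F-test with an intraclass correlation of at least 0.5, those past the subspecies comparison, the 5 smallest SDs, extremes of signal and paralogs, and some others (such as Rps21 and Rpl28) chosen after their values were seen. The members and lists were chosen with earlier results of these data known. Replicate numbers did not pair arrays: deviations of same-numbered arrays over 36 strains correlated at a median of 0.00039 (-0.63 to 0.57). The highest correlation between 2 arrays was 0.997.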

Additional observations from a re-analysis of the deposited data

Results flagged for a closer look

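Only C57BL/6J had enough arrays (5) to look for an array apart from the rest of its group, and of 37 sets of values tested, 3 had one. Chance gives about 1 in 20. Rpl3l, a muscle form of Rpl3, read 6.36 on the log2 scale in replicate 5, against 5.32 to 5.38 in the other 4 arrays. Replicate 5 also had the highest median of all 82 arrays, 7.15 on the log2 scale, against 6.68 to 6.79 in the other 4. Several marker lists with low signal were higher in it as well. B cell markers read 6.03, against 5.54 to 5.64, and NK cell markers 5.85, against 5.36 to 5.44. Erythroid markers read 6.93 (others 6.50 to 6.52), myeloid markers 6.08 (5.66 to 5.80) and neutrophil markers 5.99 (5.47 to 5.66). T cell markers, at 12.11, lay within the range of the others (12.06 to 12.11). The part of these differences in the Rpl3l value was not tested. Rpsa read 12.06 in replicate 4, against 12.25 to 12.31 in the others. The common level of the 63 genes was 11.08 in the same replicate 4, against 11.16 to 11.18 in the others.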

How the results depend on the processing

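Most values held their direction and their side of the p threshold: of 421 values of named genes under the alternatives that keep all arrays or leave out a strain or a pair of arrays, 409 did, and of 2788 with 1 of the 82 arrays left out in turn, 2786 did. The F-test count of 54 ran from 47 to 58, and from 52 to 55 with 1 array left out. The 8 strain calls became 56 with a fold minimum of 1.5, and the share of all probe sets called at that minimum was not computed. They became 5 with probe sets on the gene's own chromosome, an alternative chosen after seeing the data which leaves out Rps3a1. With 1 array left out there were 7 to 9. The subspecies count of 11 ran from 8 to 13 (1 to 5 higher, 6 to 9 lower), and from 10 to 11 with 1 array left out (2 to 3 higher, 8 lower). The SD of the common level ran from 0.0743 to 0.12, and from 0.103 to 0.114 with 1 array left out.

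The Rpsa subspecies difference turned to -0.258 with the lowest-mean probe set and -0.167 with the one on its own chromosome, and missed the threshold with each array centred on its median (adjusted p = 0.0651), without CAST/EiJ (0.0533), PWD/PHJ (0.105), MSM/Ms (0.0817) or JF1/Ms (0.146), and without replicate 3 of CAST/EiJ (0.0549) or replicate 2 of MSM/Ms (0.0589). Rpl7a missed it with the lowest-mean probe set (0.4, and 0.0705 in the F-test). The cause was not tested.

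With the replicate number as a block, 54 members passed the F-test, 7 strain calls were made, 11 members differed by origin and the SD of the common level was 0.106. The call lost was Rpl7 in CAST/EiJ, whose difference of 0.98 lay just under 2-fold (adjusted p = 4.42e-09), as it did with the lowest-mean probe set (0.98). The block changed no other call of a named gene, and the numbers do not pair the arrays.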
